A study of Mus musculus with 4 samples.

Results

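The collagens and stromal matrix genes were followed in cultured primary mouse pancreatic ductal cells. They were chosen by name as every gene symbol made of Col, a number, a and a number, plus Sparc, Fn1, Dcn, Lum, Bgn, Postn, Thbs1, Thbs2, Fbn1, Eln, Tnc and Lox. This gave 55 genes, 43 collagen chains and 12 others, of 22869 symbols in the deposited tables. Each gene is represented by the RefSeq transcript with the highest mean count, because the tables list transcripts and 8 of the 55 genes have several. Cells came from adult C57BL/6 mice that had not been induced. The group labelled Hhex knockout carried Sox9CreER;HhexL/L (2 mice), and the control group carried HhexL/L without the Cre (2 littermates). Both groups have the floxed alleles, and both were exposed in culture to 500 nM 4-hydroxytamoxifen over 4 days. The tamoxifen-dependent Cre is driven by Sox9, a gene of duct cells, and no group carried the Cre alone. Effects of the Cre and of Hhex loss therefore cannot be told apart.

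Collagens are trimers wound from chains with a regularly repeated glycine, and the chain types sort them into assemblies. Collagen IV forms the sheet-like network of basement membranes, which epithelial cells themselves help to build. Collagens I and III form the cable-like fibrils of connective tissue and are products of fibroblasts and activated stellate cells, the main source of scar matrix in pancreatitis. Matricellular proteins such as tenascin C, thrombospondin 1 and SPARC sit in the matrix and tune adhesion rather than carry load. Lysyl oxidase, the product of Lox, cross-links collagen and elastin outside the cell.

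Total counts per library lay between 25257778 and 39582625. The targeted gene, Hhex, showed no lower level under the knockout label. It stood at 23.6 and 39.0 CPM there and at 24.8 and 17.7 CPM in the controls, where CPM are counts per 1000000 of the TMM-scaled library. Which exon is deleted is not given in the sources used here, so a count over the whole transcript cannot check the label. The edgeR adjusted p of Hhex was 0.742. The group is called by its label throughout, and each direction below is between labelled groups. Labelled knockout replicate 2 was the one library with a high Xist count, 304 CPM against at most 1.75 CPM in the other libraries, a mark of female cells, so sex and group are not balanced.

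Among the 55 genes, collagen IV, tenascin C, fibronectin, thrombospondin 1 and collagen XVIII had the highest transcript levels. Col4a1, the collagen IV alpha 1 chain, had the highest level of all members at a mean of 205 RPKM, which ranked 110 of 22869 symbols by mean RPKM. RPKM, which scale reads for transcript length and library depth, were deposited by the authors and are used here to compare levels between genes. Tnc followed at 130.4 RPKM, Col4a2 at 105 RPKM, Fn1 at 77.2 RPKM, Thbs1 at 61.1 RPKM and Col18a1 at 47.2 RPKM. Only 8 of the 55 genes averaged 10 RPKM or more, another 7 lay between 1 and 10 RPKM, and 40 averaged under 1 RPKM.

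**Figure D1:**
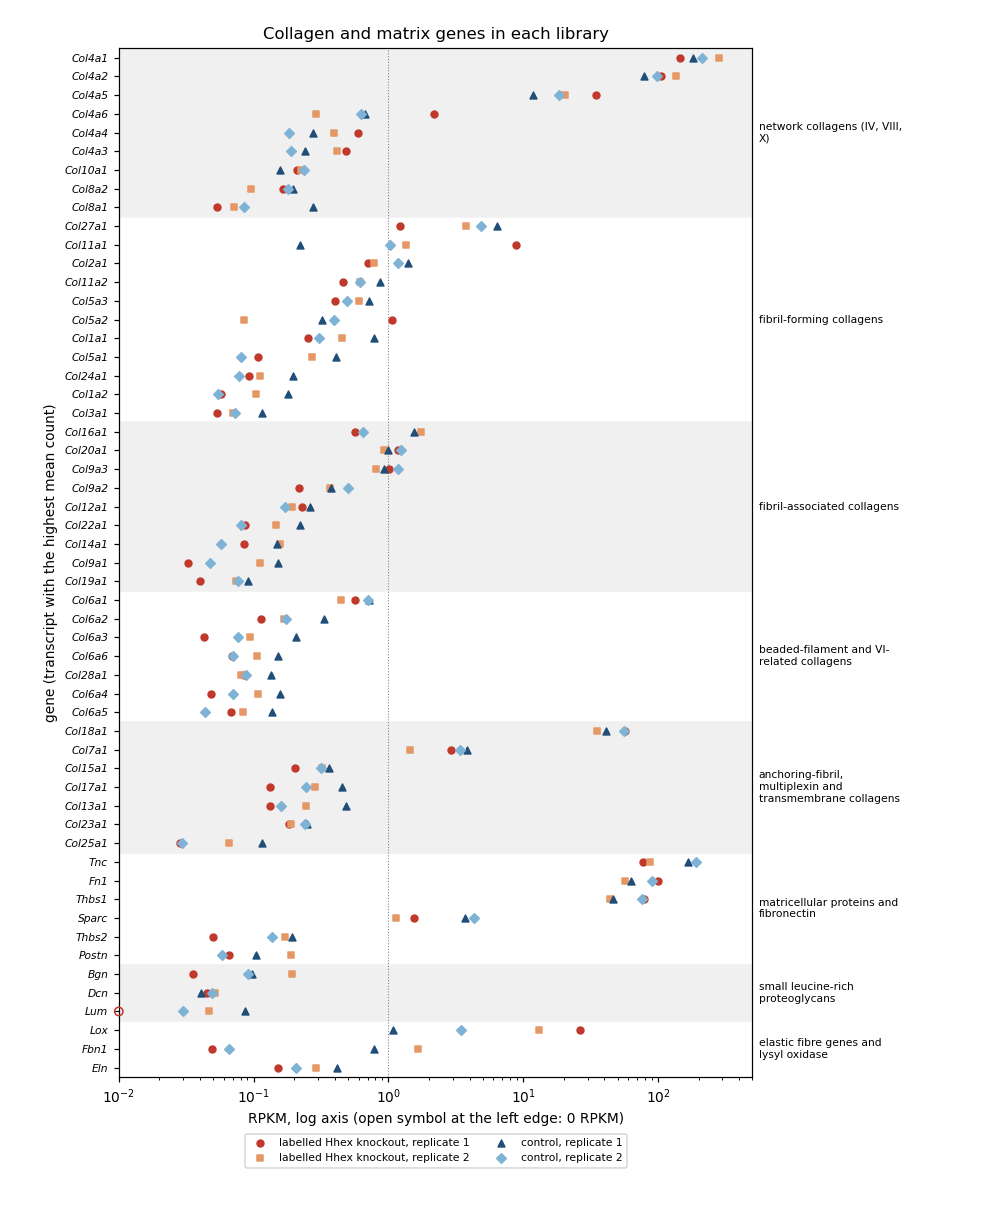
Level in RPKM (log axis) of the 55 genes in each of the 4 libraries, grouped by class, with a dotted line at 1 RPKM. Col4a1, Col4a2, Col4a5, Tnc, Fn1, Thbs1 and Col18a1 lie far to the right. A further 40 genes, with Col4a3, Col4a4 and Col4a6 among them, average under 1 RPKM.

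Some genes typical of stroma had very low counts, unlike Tnc, Fn1, Thbs1 and Lox. Dcn, the small proteoglycan decorin that coats collagen fibrils, had 4 and 4 counts in the knockout-labelled libraries and 3 and 3 counts in the controls. Lum, its relative lumican, had 0 and 4 counts in the knockout-labelled libraries and 7 and 2 counts in the controls. The 0 allows a level of up to 0.0804 CPM, the level that 3 counts would give, a limit for counting error only. Bgn, the related biglycan, had 4 and 19 counts in the knockout-labelled libraries and 9 and 7 counts in the controls. These 3 genes did not pass the filter on low counts and were not tested. Postn, the fibroblast protein periostin, stood at 0.268 and 0.806 CPM in the knockout-labelled libraries and at 0.474 and 0.243 CPM in the controls. Its log2 fold change turned, without labelled knockout replicate 2, from 0.56 to -0.44.

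The chains of collagens I and III each averaged under 1 RPKM. Col1a1 stood at 0.253 and 0.455 RPKM in the knockout-labelled libraries and at 0.785 and 0.304 RPKM in the controls. Col1a2, its partner in the collagen I trimer, stood at 0.0577 and 0.104 RPKM in the knockout-labelled libraries and at 0.181 and 0.0542 RPKM in the controls. Both chains were highest in control replicate 1, and the groups overlapped. Without that library the log2 fold change of Col1a1 turned from -0.71 to 0.21 and that of Col1a2 from -0.64 to 0.56. Col1a1 was called by edgeR at -1.27 without labelled knockout replicate 2. Col3a1, the single chain of collagen III, lay between 0.0533 and 0.116 RPKM in every library. Dcn, Lum, Bgn, Postn, Col1a1, Col1a2 and Col3a1, like Fbn1 below, were picked for description with their values in view.

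By class, the 9 network collagens summed to 289 and 440.02 RPKM in the knockout-labelled libraries and to 275 and 328 RPKM in the controls. The 6 matricellular genes with Fn1 summed to 256 and 190.2 RPKM in the knockout-labelled libraries and to 279.98 and 360.1 RPKM in the controls. These 2 classes held 83.9% and 90.4% of the summed RPKM of the members in the knockout-labelled libraries, and 89.2% and 89.8% in the controls. The 11 fibril-forming collagens summed to 13.2 and 8.17 RPKM in the knockout-labelled libraries and to 11.6 and 9.15 RPKM in the controls, and the 7 chains of collagen VI and its relative XXVIII to 0.993 and 1.09 RPKM against 1.83 and 1.23 RPKM in the controls. The class of elastic fibre genes and Lox was the one with the widest gap between groups, 26.7 and 15.01 RPKM in the knockout-labelled libraries against 2.28 and 3.74 RPKM in the controls, and Lox made up most of it.

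**Figure D2:**
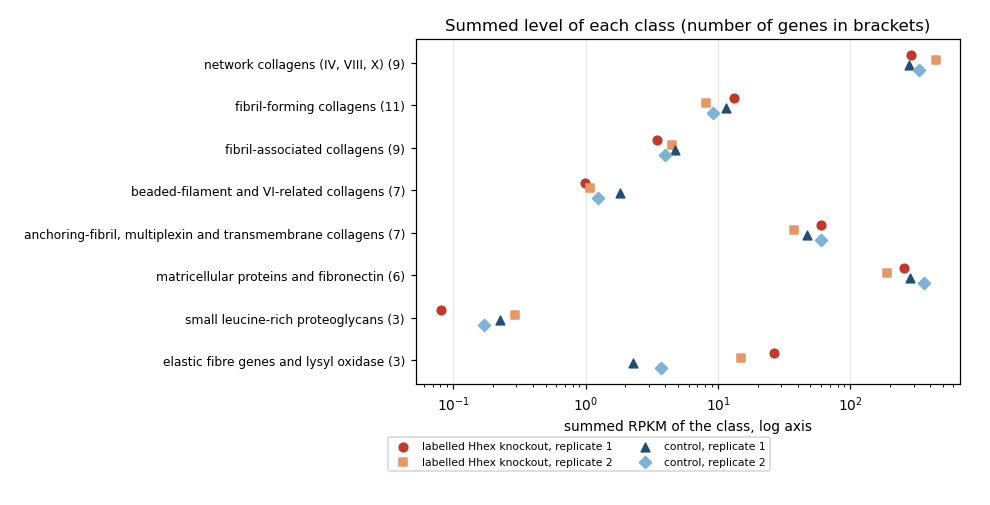
Summed RPKM (log axis) of each of 8 classes of the 55 genes, with 1 symbol per library. Network collagens and matricellular genes lie at 190.2 to 440.02 RPKM, fibril-forming collagens at 8.17 to 13.2 RPKM, and the Lox class shows both knockout-labelled libraries above both controls.

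No member passed the test over all transcripts. Of the 52 members tested, 0 had an edgeR adjusted p under 0.05, while 37 of 20949 transcripts did (0.177%), 27 higher (0.129%) and 10 lower (0.0477%). With library totals in place of TMM, 0 higher and 5 lower transcripts were called (0.0239%), and again 0 members. At an unadjusted edgeR p under 0.05 there were 10 members, 5 higher and 5 lower, beside 7.47% of all transcripts (4.69% higher and 2.78% lower). They were Lox, Col11a1, Col4a3, Col4a4 and Col4a5 on the higher side, and Sparc, Tnc, Col2a1, Col7a1 and Col27a1 on the lower side. DESeq2 called 3 members, Lox, Sparc and Tnc, beside 1.69% of all transcripts. Limma-trend called 2 members on log2(RPKM + 1), beside 0.907% of transcripts, and 4 on log2(RPKM + 0.1), beside 1.05%. In edgeR, omitting the filter on low counts gave 2 members beside 0.28%, and the robust fit gave 1 beside 0.401%. Relative log expression factors, 1 transcript per symbol and counts summed per symbol gave 0 members, beside 0.124%, 0.0126% and 0.031% of features. Without labelled knockout replicate 1 edgeR called 11 members beside 7.58% of transcripts, and without labelled knockout replicate 2 it called 16 beside 7.89%. Without control replicate 1 it called 0 members beside 0.0601%, and without control replicate 2 it called 1, Lox, beside 0.139%. A lone library is then taken to vary like the other group. In bulk RNA, fewer cells of a type and less RNA per cell cannot be told apart.

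**Figure D3:**
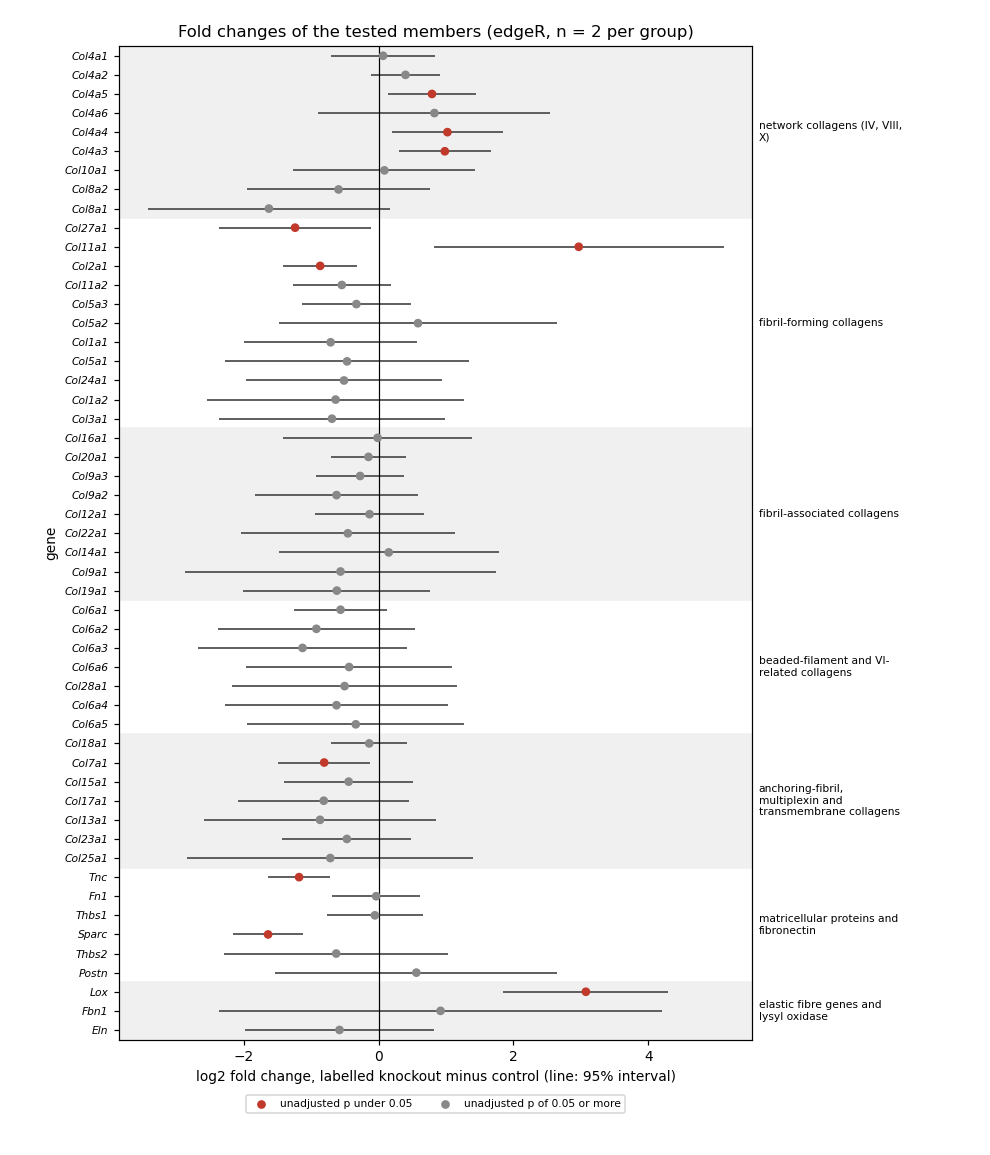
Log2 fold change (labelled knockout minus control, edgeR) of the 52 tested genes with 95% intervals, red where the unadjusted p is under 0.05. Sparc and Tnc lie left of 0 with narrow intervals, and Lox and Col11a1 lie right of 0 with wider ones. All 6 collagen IV chains have values above 0, but the intervals of Col4a1, Col4a2 and Col4a6 include 0.

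Sparc and Tnc were the members with the clearest separation on the lower side. Sparc (NM_009242), which encodes a collagen-binding glycoprotein secreted at sites of remodelling, stood at 4.53 and 3.48 CPM in the knockout-labelled libraries and at 11.99 and 13.1 CPM in the controls. Both knockout-labelled libraries lay far below both controls, and the 2 libraries of each group were close together. Its log2 fold change was -1.64 ± 0.22 (SE), a 3.12-fold lower level with a 95% interval of the log2 value from -2.16 to -1.12, and the edgeR adjusted p was 0.0609. The gap was larger than the spread within groups, 4.01 ± 0.738 CPM in the knockout-labelled libraries against 12.5 ± 0.755 CPM in the controls (SD, n = 2 each). At 108 to 329 counts per library Sparc was nonetheless a low transcript, with a mean of 2.68 RPKM.

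Tnc (NM_011607) encodes tenascin C, a large glycoprotein that appears in injured and remodelling tissue. It stood at 690.7 and 826 CPM in the knockout-labelled libraries and at 1675 and 1763 CPM in the controls. The groups did not overlap, and Tnc was one of the most abundant transcripts of the whole culture, ranked 219 by mean RPKM. Its log2 fold change was -1.18 ± 0.20 (SE), a 2.27-fold lower level with a 95% interval of the log2 value from -1.64 to -0.72, and the edgeR adjusted p was 0.122. DESeq2 passed both genes, with an adjusted p of 7.39e-06 for Sparc and of 3.83e-10 for Tnc, whereas with 1 transcript per symbol edgeR gave 0.113 and 0.124. Leaving out either knockout-labelled library, so that a single one remained, brought both genes past the threshold, and leaving out a control did not. Without labelled knockout replicate 1 the log2 values were -1.87 for Sparc and -1.08 for Tnc, and without replicate 2 they were -1.48 and -1.33.

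The promoter windows of these 2 genes are shown because they are the members with the smallest p on the lower side. Both come from RefSeq on GRCm38.p6 and run from 250 bases before to 50 after a start. The Sparc window is chr11:55420031-55420330 on the minus strand, and the Tnc window is chr4:64046966-64047265 on the minus strand. Capitals mark every match on either strand to 5 motifs. These were the CCAAT box (CCAAT), the GC box (GGGCGG), the TATA box (TATAAA), the AP-1 site (TGANTCA) and the homeodomain core (ATTAA), which HHEX is known to bind among other factors. No match overlapped another in these windows.
Sparc: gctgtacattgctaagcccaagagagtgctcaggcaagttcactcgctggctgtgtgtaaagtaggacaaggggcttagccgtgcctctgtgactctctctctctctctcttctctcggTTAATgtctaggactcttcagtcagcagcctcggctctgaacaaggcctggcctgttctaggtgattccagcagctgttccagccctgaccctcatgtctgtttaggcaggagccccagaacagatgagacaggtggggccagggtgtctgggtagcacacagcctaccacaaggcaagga
Tnc: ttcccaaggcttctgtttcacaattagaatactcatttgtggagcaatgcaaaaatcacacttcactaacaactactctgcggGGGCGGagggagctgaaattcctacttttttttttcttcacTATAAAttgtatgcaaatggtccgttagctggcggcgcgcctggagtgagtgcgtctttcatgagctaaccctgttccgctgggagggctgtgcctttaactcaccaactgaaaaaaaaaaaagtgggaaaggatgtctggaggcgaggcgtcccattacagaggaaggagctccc
The Sparc window held 1 homeodomain core and no match to the other motifs, at a GC content of 55.3%. The Tnc window held 1 GC box and 1 TATA box at 47.3% GC. Over all 32851 RefSeq promoter windows of this length, 27.1% held the homeodomain core, 35.7% a GC box, 13.6% a TATA box, 37.4% a CCAAT box and 7.81% an AP-1 site. Of the 55 genes, 41 had a window. With 1 window counted per gene, unlike the shares over all windows, 9 held the homeodomain core, 25 a GC box, 7 a TATA box, 14 a CCAAT box and 1 an AP-1 site. A match is a match of letters and was not tested as a binding site.

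Lox was the member with the largest difference on the higher side. It stood at 121 and 62.6 CPM in the knockout-labelled libraries and at 5.50 and 16.3 CPM in the controls. Both knockout-labelled libraries lay above both controls, but the 2 libraries within each group were far apart. The log2 fold change of Lox (NM_010728) was 3.07 ± 0.52 (SE), an 8.42-fold higher level with a 95% interval of the log2 value from 1.85 to 4.30, and its edgeR adjusted p was 0.129. DESeq2 gave an adjusted p of 0.0189 and limma-trend on log2(RPKM + 0.1) gave 0.000137, but edgeR's robust quasi-likelihood fit, tried after the data were seen, gave 0.624. Lox was called by edgeR without control replicate 2 (log2 fold change 4.10), without labelled knockout replicate 1 (2.51) and without labelled knockout replicate 2 (3.47), and not without control replicate 1 (2.49).

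**Figure D4:**
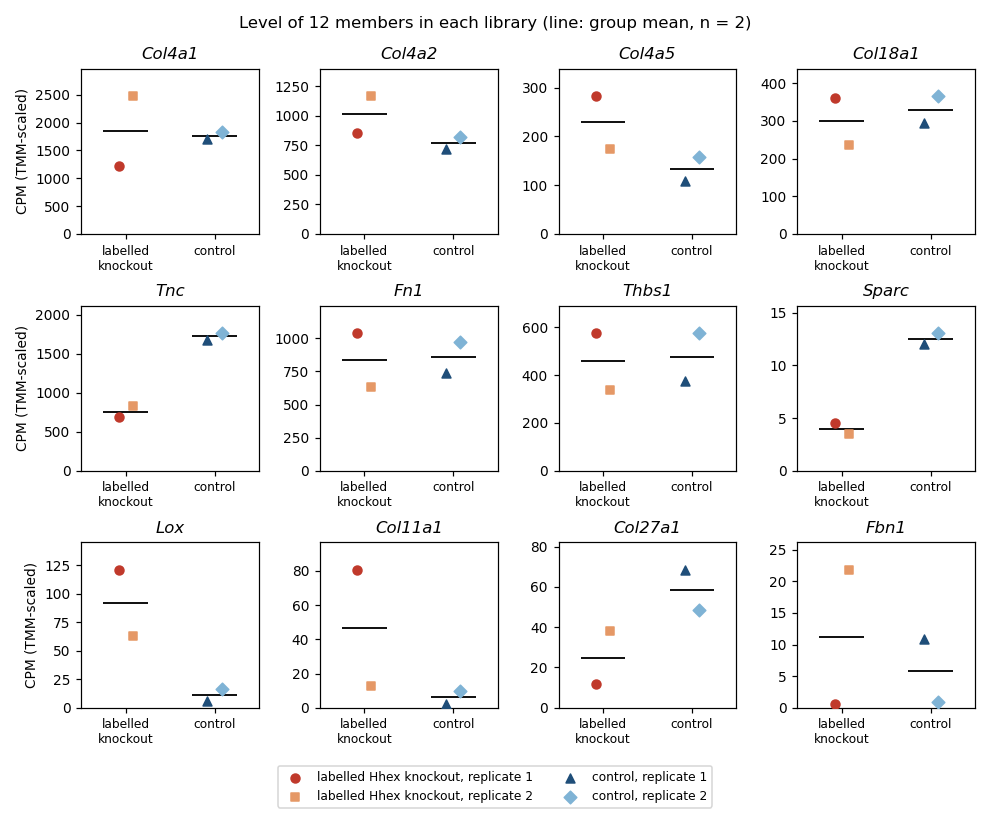
TMM-scaled CPM of 12 members in each library, with a line at each group mean (n = 2). The groups do not overlap for Tnc, Sparc, Lox, Col4a2, Col4a5, Col11a1 and Col27a1. Col4a1, Fn1, Thbs1 and Col18a1 overlap, and Fbn1 is high in 1 library of each group.

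**Figure D5:**
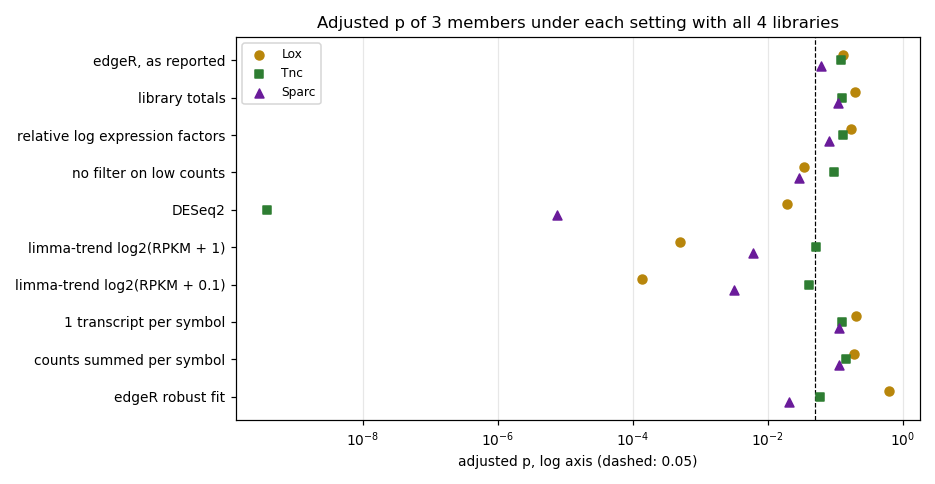
Adjusted p (log axis) of Lox, Tnc and Sparc under the reported edgeR fit and 9 alternatives that kept all 4 libraries, with a dashed line at 0.05. Sparc passed in 5 of the 10, Lox in 4 and Tnc in 2, and none of the 3 passed in the reported fit.

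The other lysyl oxidases differed less between the groups. Loxl1 was far lower than Lox, while Loxl2, Loxl3 and Loxl4 stood above Lox in each control. Loxl4, a lysyl oxidase-like enzyme, stood at 32.8 and 33.5 CPM in the knockout-labelled libraries and at 18.7 and 23.4 CPM in the controls, without overlap (log2 fold change 0.66 ± 0.17 SE, edgeR adjusted p = 0.313). Loxl1, Loxl2 and Loxl3 overlapped between the groups. Loxl2 stood at 27.8 and 11.3 CPM in the knockout-labelled libraries and at 15.2 and 21.5 CPM in the controls.

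Collagen IV made up most of the collagen RNA. Its chains assemble into 3 kinds of trimer, of which the one from the alpha 1 and alpha 2 chains is found in nearly every basement membrane. Col4a1 (NM_009931) stood at 1216 and 2474 CPM in the knockout-labelled libraries and at 1703 and 1824 CPM in the controls. The knockout-labelled libraries lay on either side of both controls, and the log2 fold change was 0.07 ± 0.33 (SE), with a 95% interval from -0.71 to 0.84. It turned to -0.55, called by edgeR, without labelled knockout replicate 2. Col4a2 (NM_009932), the partner chain, stood at 856 and 1168 CPM in the knockout-labelled libraries and at 719 and 817 CPM in the controls. Here both knockout-labelled libraries lay above both controls by a small margin (log2 fold change 0.40 ± 0.22 SE, edgeR adjusted p = 0.785), and without labelled knockout replicate 1 the value was called at 0.58.

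The 2 chains of this trimer did not keep a fixed ratio. Per length, Col4a1 was at 1.38 and 2.06 times the RPKM of Col4a2 in the knockout-labelled libraries, and at 2.30 and 2.17 times in the controls. Labelled knockout replicate 1 was the one library with a low ratio. The genes lie head to head on chromosome 8 and are transcribed away from each other, and their RefSeq promoter windows overlap by 78 bases. The windows are printed because the 2 chains differ in ratio between libraries. The Col4a1 window is chr8:11312777-11313076 on the minus strand and the Col4a2 window is chr8:11312555-11312854 on the plus strand (GRCm38.p6), with capitals for the same 5 motifs.
Col4a1: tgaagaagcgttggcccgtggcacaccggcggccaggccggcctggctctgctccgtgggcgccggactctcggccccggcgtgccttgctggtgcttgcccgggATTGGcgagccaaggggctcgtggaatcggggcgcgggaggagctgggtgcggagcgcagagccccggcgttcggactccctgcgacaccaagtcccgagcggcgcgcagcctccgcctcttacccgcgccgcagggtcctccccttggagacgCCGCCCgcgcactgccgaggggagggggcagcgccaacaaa
Col4a2: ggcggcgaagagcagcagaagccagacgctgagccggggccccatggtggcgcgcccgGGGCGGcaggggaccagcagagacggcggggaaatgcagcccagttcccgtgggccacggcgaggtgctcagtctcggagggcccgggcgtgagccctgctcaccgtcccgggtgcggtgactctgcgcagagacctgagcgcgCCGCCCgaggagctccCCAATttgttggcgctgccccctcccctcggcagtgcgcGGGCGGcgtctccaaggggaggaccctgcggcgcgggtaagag
The Col4a1 window held 1 CCAAT box and 1 GC box at 74.0% GC, and the Col4a2 window held 1 CCAAT box and 3 GC boxes at 73.7% GC. Neither held a TATA box, an AP-1 site or the homeodomain core.

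Among the minor collagen IV chains, Col4a3, Col4a4 and Col4a5 lay higher in both knockout-labelled libraries without passing the test. Col4a5, an X-linked chain of the specialised epithelial networks, stood at 283 and 175 CPM in the knockout-labelled libraries and at 108 and 157 CPM in the controls. The groups did not overlap, but labelled knockout replicate 2 lay close to control replicate 2 (log2 fold change 0.79 ± 0.28 SE, edgeR adjusted p = 0.522). Col4a3 and Col4a4, which join alpha 5 in the kidney filter and are another head-to-head pair, also did not overlap between the groups. Col4a3 stood at 5.28 and 4.74 CPM in the knockout-labelled libraries and at 2.91 and 2.15 CPM in the controls (log2 fold change 0.98 ± 0.29 SE, edgeR adjusted p = 0.427). Col4a4 stood at 5.87 and 4.06 CPM in the knockout-labelled libraries and at 3.02 and 1.86 CPM in the controls (log2 fold change 1.02 ± 0.35 SE, edgeR adjusted p = 0.511). Per length, Col4a3 and Col4a4 stayed near parity, with a ratio of 0.816 and 1.06 in the knockout-labelled libraries and of 0.874 and 1.04 in the controls. With labelled knockout replicate 2 left out, edgeR called Col4a5, Col4a4 and Col4a3, at log2 fold changes of 1.08, 1.24 and 1.04.

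Col4a6, the X-linked neighbour of Col4a5, followed 1 library rather than the group. It stood at 18.1 and 2.55 CPM in the knockout-labelled libraries and at 6.30 and 5.39 CPM in the controls. Its log2 fold change of 0.83 became -1.23 without labelled knockout replicate 1 and 1.61 without replicate 2. Col8a1, Col8a2 and Col10a1, network collagens of vessel, cornea and growth cartilage, averaged at most 0.207 RPKM.

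Among the fibril-forming collagens, minor chains were the abundant ones. Col27a1, a fibrillar chain best known from cartilage, stood at 11.7 and 37.9 CPM in the knockout-labelled libraries and at 68.4 and 48.4 CPM in the controls. Both knockout-labelled libraries lay below the controls, 1 of them far below (log2 fold change -1.24 ± 0.48 SE, edgeR adjusted p = 0.609). Col11a1, a nucleating chain of thin fibrils that is known as a marker of activated tumour fibroblasts, stood at 80.6 and 12.9 CPM in the knockout-labelled libraries and at 2.26 and 9.77 CPM in the controls. Labelled knockout replicate 1 stood apart, and the other knockout-labelled library lay just above control replicate 2. The log2 fold change of Col11a1 was 2.97 ± 0.91 (SE) with an edgeR adjusted p of 0.454, and it was 1.10 without labelled knockout replicate 1. Both that value and the 3.75 without labelled knockout replicate 2 were called, as were those of Col27a1, -0.65 and -2.35.

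Col2a1, the cartilage collagen chain, stood at 4.61 and 5.32 CPM in the knockout-labelled libraries and at 10.2 and 7.91 CPM in the controls, without overlap (log2 fold change -0.87 ± 0.23 SE, edgeR adjusted p = 0.349). With a single knockout-labelled library it was called at -0.80 without replicate 1 and at -0.995 without replicate 2. Col11a2, another minor fibrillar chain, stood at 3.24 and 4.55 CPM in the knockout-labelled libraries and at 6.81 and 4.54 CPM in the controls (edgeR adjusted p = 0.792). The groups overlapped, since labelled knockout replicate 2 lay just above control replicate 2. It was called at -0.83 without labelled knockout replicate 2.

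The collagen V chains, which seed collagen I fibrils, did not move as a unit. Col5a2 stood at 8.84 and 0.742 CPM in the knockout-labelled libraries and at 3.02 and 3.41 CPM in the controls. Its log2 fold change of 0.58 became -2.13 without labelled knockout replicate 1 and 1.44 without replicate 2, both called by edgeR. Col5a1 stood at 1.15 and 3.00 CPM in the knockout-labelled libraries and at 4.81 and 0.892 CPM in the controls. Per length, the ratio of Col5a1 to Col5a2 was 0.103 and 3.18 in the knockout-labelled libraries and 1.25 and 0.206 in the controls, so libraries of the same group differed more than the groups did. The log2 fold change of Col5a1 turned from -0.47 to 0.03 without labelled knockout replicate 1 and to 1.21 without control replicate 1. Col5a3 stood at 3.08 and 4.90 CPM in the knockout-labelled libraries and at 6.12 and 3.89 CPM in the controls, and its value turned from -0.33 to 0.03 without control replicate 1.

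Fibril-associated collagens, which decorate fibrils, were low throughout. Col16a1, a chain found near basement membranes, stood at 3.70 and 11.999 CPM in the knockout-labelled libraries and at 11.4 and 4.38 CPM in the controls. It was high in 1 library of each group, and its log2 fold change was -0.02 ± 0.60 (SE). That value lay between -1.12 without labelled knockout replicate 2, which edgeR called, and 0.83 without control replicate 1. Col20a1 stood at 6.24 and 5.13 CPM in the knockout-labelled libraries and at 5.83 and 6.81 CPM in the controls (log2 fold change -0.15 ± 0.23 SE). The value was 0.00 without control replicate 2. The other 7 members of the class averaged at most 0.98 RPKM.

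Collagen VI, the beaded filament that links cells to the matrix around them, was barely detected. Col6a1 stood at 2.84 and 2.35 CPM in the knockout-labelled libraries and at 4.01 and 3.69 CPM in the controls, without overlap (log2 fold change -0.57 ± 0.29 SE, edgeR adjusted p = 0.766). Col6a2 stood at 0.536 and 0.839 CPM in the knockout-labelled libraries and at 1.75 and 0.851 CPM in the controls. Col6a3 stood at 0.589 and 1.35 CPM in the knockout-labelled libraries and at 3.13 and 1.09 CPM in the controls. Control replicate 1 was the highest library for each of the 3 chains.

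Collagens that anchor or border epithelia were led by Col18a1, a basement membrane chain whose cleaved end is endostatin. Col18a1 stood at 362 and 236 CPM in the knockout-labelled libraries and at 294 and 366 CPM in the controls. The groups overlapped, and the log2 fold change was -0.14 ± 0.24 (SE), with a 95% interval from -0.71 to 0.43. It turned to 0.07 without control replicate 2 and to 0.12 without labelled knockout replicate 2. Col7a1, the anchoring fibril collagen of stratified epithelia, stood at 33.8 and 17.7 CPM in the knockout-labelled libraries and at 49.5 and 40.8 CPM in the controls. Both knockout-labelled libraries lay below both controls (log2 fold change -0.81 ± 0.29 SE, edgeR adjusted p = 0.543). It was called at -1.38 without labelled knockout replicate 1. Col13a1, Col15a1, Col17a1, Col23a1 and Col25a1 averaged between 0.0594 and 0.3 RPKM.

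Fn1, the adhesive glycoprotein fibronectin, stood at 1039 and 630.2 CPM in the knockout-labelled libraries and at 739 and 975 CPM in the controls. The groups overlapped fully, and the log2 fold change was -0.04 ± 0.28 (SE), with a 95% interval from -0.69 to 0.62. Thbs1, which encodes an activator of latent TGF-beta, stood at 576 and 339.8 CPM in the knockout-labelled libraries and at 376 and 576 CPM in the controls. Its log2 fold change was -0.06 ± 0.30 (SE), with a 95% interval from -0.77 to 0.66. Fn1, Thbs1 and Col18a1 each had labelled knockout replicate 1 and control replicate 2 as their 2 highest libraries. The values of Fn1 and Thbs1 turned to 0.21 and 0.32 without control replicate 2, and to 0.26 and 0.26 without labelled knockout replicate 2. Thbs2, a relative of Thbs1 made by fibroblasts, stood at 0.375 and 1.35 CPM in the knockout-labelled libraries and at 1.60 and 1.05 CPM in the controls. Thbs1 was thus at 239.7 to 1569 times the RPKM of Thbs2 across the libraries.

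Fbn1, the microfibril protein fibrillin 1, varied widely within both groups. It stood at 0.616 and 21.8 CPM in the knockout-labelled libraries and at 10.9 and 0.851 CPM in the controls. The highest and the lowest of the 4 libraries carried the same label, and the log2 fold change of 0.92 ± 1.39 (SE) had a 95% interval from -2.37 to 4.20. It was -3.29 without labelled knockout replicate 2 and 1.84 without replicate 1, both called by edgeR. Eln, which encodes elastin, stood at 0.723 and 1.45 CPM in the knockout-labelled libraries and at 2.22 and 1.01 CPM in the controls.

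Low members, like most low transcripts, were highest in 1 control library. Of the 52 members tested, 39 had log2 fold changes below 0, beside 51.2% of all transcripts tested, and their median was -0.47 beside -0.01. Among the 37 tested members under 1 RPKM, 29 lay below 0 (78.4%) beside 69.6% of such transcripts. Control replicate 1 was the highest library for 27 of the 37 (73.0%) beside 58.8%. Among the 15 tested members at 1 RPKM or more, 10 also lay below 0, beside 6405 of 14726 such transcripts. Without control replicate 1 the median of all members was 0.03. The 1466 olfactory, vomeronasal and trace amine receptor genes, which duct cells are not known to use, summed to 105 and 134 CPM in the knockout-labelled libraries and to 205 and 135 CPM in the controls. They too were highest in control replicate 1, and their part in the low members' values was not tested. Of the members tested, 6 lay above and 15 below in both knockout-labelled libraries, beside 19.1% and 17% of all transcripts (36.1% in either direction).

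Genes that make, modify and bind these matrix proteins were read from lists, and edgeR called 0 of them in any list, beside 0.177% of all transcripts. Of the 26 genes of collagen synthesis and processing tested, 2 had an unadjusted edgeR p under 0.05, beside 7.47% of all transcripts. Tll1 and Loxl4 were the 2 genes, both higher. Tll1, a procollagen protease of the tolloid family, stood at 15.9 and 14.9 CPM in the knockout-labelled libraries and at 5.39 and 9.81 CPM in the controls (log2 fold change 1.02). Pcolce2, an enhancer of such proteases, stood at 1.96 and 1.06 CPM in the knockout-labelled libraries and at 0.619 and 0.892 CPM in the controls. Serpinh1, the collagen chaperone HSP47, stood at 165 and 155 CPM in the knockout-labelled libraries and at 149.999 and 159.5 CPM in the controls, and was chosen with its values in view. The median log2 fold change of the list was 0.05.

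Among 8 collagen receptors tested, Itga2, the alpha chain of a collagen-binding integrin of epithelia, stood at 80.7 and 117 CPM in the knockout-labelled libraries and at 145 and 162 CPM in the controls (log2 fold change -0.64, edgeR adjusted p = 0.475). It was the one receptor with an unadjusted edgeR p under 0.05, beside 7.47% of all transcripts. Ddr1, the epithelial collagen receptor kinase, stood at 102 and 163 CPM in the knockout-labelled libraries and at 102 and 109 CPM in the controls. Itgb1, the beta chain shared by collagen-binding integrins, stood at 3204 and 2333 CPM in the knockout-labelled libraries and at 2067 and 2439 CPM in the controls.

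Of 17 basement membrane partners tested, 4 had an unadjusted edgeR p under 0.05, all higher, beside 7.47% of all transcripts (4.69% higher). Nid1, which encodes nidogen 1, the linker between laminin and collagen IV, stood at 20.2 and 29.8 CPM in the knockout-labelled libraries and at 10.2 and 9.45 CPM in the controls (log2 fold change 1.35 ± 0.22 SE, edgeR adjusted p = 0.122). Lamb3, a chain of the epithelial laminin 332, stood at 294 and 316 CPM in the knockout-labelled libraries and at 157 and 216 CPM in the controls (edgeR adjusted p = 0.38). Npnt, the integrin ligand nephronectin, stood at 17.8 and 15.9 CPM in the knockout-labelled libraries and at 11.8 and 10.8 CPM in the controls (edgeR adjusted p = 0.443). These 3, named for their smallest p, did not overlap between the groups, and neither did 36.1% of all transcripts. The median of the list was 0.11, beside -0.01 over all transcripts.

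Of 22 other stromal matrix genes tested, 4 higher and 3 lower ones had an unadjusted edgeR p under 0.05, beside 4.69% and 2.78% of all transcripts. Of the 25 in the tables, 14 averaged under 1 CPM. Fbln2, which encodes fibulin 2, was by far the highest of the list and was chosen with its values in view. It stood at 1785 and 2666 CPM in the knockout-labelled libraries and at 1485 and 1416 CPM in the controls (edgeR adjusted p = 0.614). Its mean of 310 RPKM was above that of Col4a1, the highest member, at 205 RPKM. Efemp1, the matrix glycoprotein fibulin 3, stood at 35.8 and 114 CPM in the knockout-labelled libraries and at 22.1 and 24.3 CPM in the controls (edgeR adjusted p = 0.38). Efemp2, the elastic fibre protein fibulin 4, stood at 23.1 and 12.3 CPM in the knockout-labelled libraries and at 30.8 and 31.5 CPM in the controls (edgeR adjusted p = 0.511). Thbs3, a further thrombospondin, stood at 5.01 and 5.32 CPM in the knockout-labelled libraries and at 9.11 and 7.30 CPM in the controls (edgeR adjusted p = 0.507). Efemp1 was higher, and Efemp2 and Thbs3 were lower, in both knockout-labelled libraries.

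TGF-beta drives collagen genes in many mesenchymal cells, and 15 of its ligands, receptors and targets were tested. Pmepa1, a feedback target, stood at 77.8 and 88.7 CPM in the knockout-labelled libraries and at 63.6 and 61.3 CPM in the controls (edgeR adjusted p = 0.525). It was the one gene of the list with an unadjusted edgeR p under 0.05, beside 7.47% of all transcripts. Tgfbr1, the type I receptor, stood at 309 and 199.9 CPM in the knockout-labelled libraries and at 363 and 354 CPM in the controls. Tgfb3, a ligand, stood at 16.2 and 31.97 CPM in the knockout-labelled libraries and at 17.4 and 16.3 CPM in the controls. The median of the list was 0.09.

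Markers of duct cells and of other cell types were read in the same libraries. All 11 duct epithelium markers were detected in every library, and their summed level lay between 13511 and 16765 CPM in the knockout-labelled libraries and between 12897 and 15374 CPM in the controls. Krt18 and Krt8 carried most of this sum. An unadjusted edgeR p under 0.05 was found for 3 single duct markers, beside 7.47% of all transcripts. The groups of these 3 did not overlap, and neither did those of 36.1% of all transcripts. Sox9, a duct transcription factor whose name the Cre driver carries, had 52.3 and 44.3 CPM in the knockout-labelled libraries and 17.998 and 21.4 CPM in the controls (log2 fold change 1.30 ± 0.17 SE, edgeR adjusted p = 0.0521). Muc1, an epithelial mucin, stood at 1.79 and 7.35 CPM in the knockout-labelled libraries and at 22.7 and 19.2 CPM in the controls, and Cftr, the ductal chloride channel, at 13.1 and 22.9 CPM against 33.6 and 35.1 CPM in the controls. The part of these duct marker differences in the members' values was not tested. The 11 fibroblast and stellate markers that are not members summed to 59.4 and 63.96 CPM in the knockout-labelled libraries and to 45.3 and 36.6 CPM in the controls. Vim, an intermediate filament gene that cultured epithelia also use, was the largest part in every library except control replicate 1, at 39.0 and 47.9 CPM in the knockout-labelled libraries and at 12.3 and 19.9 CPM in the controls. S100a4, a calcium-binding protein of motile cells, stood at 6.43 and 5.90 CPM in the knockout-labelled libraries and at 2.30 and 3.28 CPM in the controls, without overlap. Pdpn, a membrane glycoprotein of fibroblasts and other cells, stood at 8.17 and 2.52 CPM in the knockout-labelled libraries and at 19.97 and 4.26 CPM in the controls, the largest marker of the list in control replicate 1. Acta2, the smooth muscle actin of activated stellate cells, went the other way from Vim and S100a4, at 1.69 and 0.839 CPM in the knockout-labelled libraries against 1.97 and 3.85 CPM in the controls. Pdgfra, a receptor used to mark fibroblasts, stood at 0.375 and 1.42 CPM in the knockout-labelled libraries and at 1.57 and 0.77 CPM in the controls, and Fap, a marker of activated ones, at 0.241 and 0.355 CPM against 0.51 and 0.446 CPM in the controls. No marker of the list was at 0. The summed level did not overlap between the groups, but the single markers were mixed. Of the 11, 3 had log2 fold changes above 0 and 8 below 0, with a median of -0.39. Log2 fold changes below 0 were found for 51.2% of all transcripts tested and 69.6% of those under 1 RPKM. The part of these markers in the differences of Lox and Col11a1 was not tested.

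Endothelial, Schwann cell and macrophage markers were mostly near the lower limit. The 6 endothelial markers summed to 2.65 and 6.64 CPM in the knockout-labelled libraries and to 9.36 and 3.37 CPM in the controls, and Emcn was at 0 in control replicate 2. The 4 Schwann cell markers summed to 3.32 and 3.77 CPM in the knockout-labelled libraries and to 2.40 and 1.74 CPM in the controls. The macrophage markers Ptprc, Csf1r, Emr1, Itgam and Lyz2 each lay under 1.5 CPM in every library. Cd68, a lysosomal protein abundant in macrophages, stood at 16.2 and 3.94 CPM in the knockout-labelled libraries and at 7.36 and 10.8 CPM in the controls. Cd14, which epithelia can express, made up most of a sum of 127 and 213 CPM in the knockout-labelled libraries and of 163 and 148 CPM in the controls. Of the 4 mesothelial markers, Wt1, Upk3b and Lrrn4 lay under 2 CPM, and Msln stood at 3139 and 4486 CPM in the knockout-labelled libraries and at 1584 and 2013 CPM in the controls. The 4 smooth muscle markers summed to 377 and 185 CPM in the knockout-labelled libraries and to 365 and 566 CPM in the controls. Most of this was Tagln, an actin-binding protein, at 268 and 163 CPM against 339 and 513 CPM in the controls. Myh11 and Cnn1, contractile proteins of smooth muscle, were instead highest in labelled knockout replicate 1. The members Lox, Col11a1, Col5a2, Col4a3, Col4a4, Col4a5, Col4a6, Fn1 and Thbs1 were highest in that library too. So were the duct markers Krt8, Krt18, Cdh1 and Sox9, while the other duct markers were highest elsewhere. Myh11 stood at 44.97 and 8.13 CPM in the knockout-labelled libraries and at 5.54 and 16.4 CPM in the controls. Cnn1 stood at 63.9 and 12.3 CPM in the knockout-labelled libraries and at 20.4 and 36.2 CPM in the controls. The part of these markers in the members' values was not tested.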

How the data were processed

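RNA of primary ductal cells from 4 mice was sequenced (Illumina TruSeq RNA v2, per the labels' protocols). The authors deposited whole-number counts and RPKM per RefSeq transcript. Genome build mm9 and the program edgeR are named, with no role, per the submitters' processing notes. The aligner, counter and strand setting are not given in the sources used here, so overlapping and antisense reads cannot be told apart.

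The 28644 transcripts were filtered with filterByExpr (minimum count 10, minimum total 15), leaving 20949. They were TMM-scaled and tested with edgeR 4.0.16 in R 4.3.3 (quasi-likelihood F test, labelled knockout minus control), p-values being adjusted by Benjamini-Hochberg across all 20949 and a threshold of 0.05. SE is the absolute log2 fold change divided by the root of F, and 95% intervals use 2 residual and 5.13 prior degrees of freedom. The common biological coefficient of variation was 0.234. The fit was tested on simulated data. With 2 animals per group precision is low, and limits at 0 counts cover counting error only.

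Alternatives were other scaling and filters, DESeq2 1.42.0, limma-trend (limma 3.58.1) on the authors' deposited RPKM with pseudocounts of 1 and 0.1 (log2), 1 transcript or a summed count per symbol, each library left out, and a robust fit added after the data were seen. The members and lists were chosen with earlier results of these data known. Named members were those called, the 15 with the highest RPKM, the 8 with the smallest p per direction at a mean of at least 1 CPM, and their trimer or pair partners (26 in all). From each list of related matrix genes up to 3 genes with the smallest p were named. Cell type markers were named with their values in view. Chromosomes, gene order and promoter windows came from RefSeq GRCm38.p6, where all 55 symbols matched and 41 had a window, and no mm9 coordinate was used. Protein sequences were not used here.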

Additional observations from a re-analysis of the deposited data

How the results depend on the processing

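No paired analysis was possible because the labels give no replicate number that the groups share. The count of transcripts called by the reported fit was 37. It was 5 with library totals, 79 without a filter on low counts, 355 in DESeq2, 190 in limma-trend on log2(RPKM + 1), 221 on log2(RPKM + 0.1), 2 with 1 transcript per symbol, 5 with counts summed per symbol and 84 with the robust fit. Relative log expression factors gave 26. With 1 library left out it lay between 13 (without control replicate 1) and 1735 (without labelled knockout replicate 2).

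The count of members called was 0 in the reported fit. It was 2 without a filter (Lox and Sparc), 3 in DESeq2 (Lox, Sparc and Tnc), 2 in limma-trend on log2(RPKM + 1), 4 on log2(RPKM + 0.1) and 1 with the robust fit (Sparc). It was 0 with library totals, relative log expression factors, 1 transcript per symbol and summed counts. With 1 library left out it lay between 0 and 16. For single members with all libraries kept, direction turned in 3 cases, all within 0.02 of 0 on the log2 scale. They were Col16a1 at 0.0137 with limma-trend on log2(RPKM + 1), and Fn1 at 8e-04 and 4e-04 with limma-trend on log2(RPKM + 1) and log2(RPKM + 0.1). The 9 alternatives that kept all libraries moved 12 of 279 values past the threshold, all in Sparc, Tnc, Lox and Col11a1.

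Ranges over the left-out libraries for log2 fold changes that turned were -0.55 to 0.46 for Col4a1, -1.23 to 1.61 for Col4a6, -0.72 to 0.031 for Col5a3, -2.13 to 1.44 for Col5a2, -1.34 to 1.21 for Col5a1, -1.12 to 0.83 for Col16a1, -0.33 to 0.0017 for Col20a1, -0.51 to 0.12 for Col18a1, -0.47 to 0.26 for Fn1, -0.51 to 0.32 for Thbs1, -1.27 to 0.21 for Col1a1, -1.24 to 0.56 for Col1a2, -0.44 to 1.12 for Postn and -3.29 to 3.70 for Fbn1. The cause was not tested. Depth limits the precision most for members with few counts, such as Col3a1 (14 and 16 counts in the knockout-labelled libraries, 25 and 13 in the controls).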
